A study of Mus musculus with 13 samples.

Results

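The 9 genes of the red cell membrane skeleton, Add1, Add2, Dmtn, Sptb, Ank1, Epb41, Epb42, Tmod1 and Slc4a1, were followed through all RNA measurements of the study, and were chosen by name for their place in that skeleton. All 9 were found among the 23337 genes counted in the EKLF+/+ and EKLF-/- libraries, among the 35389 genes of the EKLF/GFP libraries and among the 54227 genes of the single-cell library. In the EKLF/GFP libraries they were spread over 91 of 115898 transcripts. The EKLF+/+ and EKLF-/- count files list 4 of them under the older names Epb4.9 (Dmtn), Epb4.1 (Epb41), Epb4.2 (Epb42) and Spnb1 (Sptb).

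The study asked what EKLF (gene Klf1), an erythroid transcription factor, does in the macrophages of the mouse fetal liver. Cells carrying F4/80 (gene Adgre1), a surface antigen of macrophages, were sorted from livers at E13.5 (day of embryonic development), with 3 biological replicates in each of 4 groups and 1 further library of single cells. EKLF+/+ cells were wild type and EKLF-/- cells came from embryos without functional EKLF. EKLF/GFP+ and EKLF/GFP- cells were the F4/80+ cells with and without green fluorescence in embryos that carry GFP under the EKLF promoter on a single-copy transgene, with their own EKLF gene intact. The single cells were F4/80+ cells of wild-type littermate embryos, enriched on magnetic beads with a peptide present that blocks binding between Icam4 and the αv integrin. The labels give the strain C57BL/6 throughout, whereas the study's list of materials gives 129S4/SvJae for the EKLF-null line. By the labels, RNA of the EKLF/GFP+ cells was extracted with a kit for small amounts and that of the EKLF/GFP- cells by ethanol precipitation, so that the extraction and the group cannot be told apart. The study's methods put the RNA integrity of the EKLF/GFP+ cells below that of the EKLF+/+ and EKLF-/- cells.

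The red cell membrane is carried by a lattice of spectrin, and spectrin is held to the lipid bilayer at ankyrin, which binds the anion exchanger Slc4a1 together with Epb42. The ends of the spectrin tetramers meet at short actin filaments, where Epb41 strengthens the junction, the adducins Add1 and Add2 cap one filament end, Tmod1 caps the other and Dmtn bundles the actin. Erythroblasts switch these genes on as they mature, and several of the proteins have relatives in other cell types. The other genes of the membrane, called partners here, were a list of 16, among them the water channel Aqp1, the glucose transporter Slc2a1 and Rhd. A list of 19 paralogs held relatives of the 9 genes that were chosen as expressed mainly outside red cells, such as Add3, Sptbn1 and Ank3.

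EKLF binds CACCC boxes, and promoter sequence was therefore searched for them in windows of RefSeq gene starts (build GRCm38.p6, 250 bases before to 50 bases after each start). Windows were found for 6 of the 9 genes, with 8 windows in all, and were searched on both strands for CACCC, for the wider form CCNCNCCC, with which CACCC can overlap, and for AGATAA, a binding motif of GATA factors. CACCC was found in the windows of 3 genes (Add2, Sptb and Tmod1), CCNCNCCC in those of 5 (all but Epb42) and AGATAA in that of 1 (Epb42). Of all 32851 windows in the RefSeq table, 57.5% held CACCC, 49.5% held CCNCNCCC and 11.2% held AGATAA, so that the first 2 are common in any promoter. Stretches upstream of Add1, Add2, Sptb and Epb42 are shown as examples that hold a match, with the matches in capitals and all written along the strand of the gene. No annotated exon covers them, and of Epb42 these are the 55 bases farthest from the start, beyond 195 bases that an exon covers. The 3 windows of Epb41 and the window of Tmod1 are not shown. Their places are chr5:34573414-34573663 (plus strand) for Add1, chr6:86028431-86028680 (plus strand) for Add2, chr12:76710548-76710797 (minus strand) for Sptb and chr2:121037073-121037127 (minus strand) for Epb42.
Add1: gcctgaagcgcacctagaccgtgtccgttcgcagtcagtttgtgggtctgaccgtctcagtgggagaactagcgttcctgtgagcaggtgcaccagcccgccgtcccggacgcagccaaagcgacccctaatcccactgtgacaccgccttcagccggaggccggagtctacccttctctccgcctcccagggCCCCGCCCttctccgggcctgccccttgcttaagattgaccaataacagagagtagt
Add2: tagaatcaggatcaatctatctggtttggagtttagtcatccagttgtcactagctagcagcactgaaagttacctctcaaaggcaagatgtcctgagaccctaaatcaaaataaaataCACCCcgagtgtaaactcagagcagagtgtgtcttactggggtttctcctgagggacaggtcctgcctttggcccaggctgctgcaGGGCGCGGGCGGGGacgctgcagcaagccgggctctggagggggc
Sptb: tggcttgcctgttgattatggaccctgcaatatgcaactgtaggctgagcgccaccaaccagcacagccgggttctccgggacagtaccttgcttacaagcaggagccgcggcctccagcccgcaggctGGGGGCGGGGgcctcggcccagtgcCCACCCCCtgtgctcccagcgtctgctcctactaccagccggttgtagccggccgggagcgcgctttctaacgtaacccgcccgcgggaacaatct
Epb42: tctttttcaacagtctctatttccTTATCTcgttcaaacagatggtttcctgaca
The capitals in Add1 and Sptb are CCNCNCCC or its reverse complement, with a CACCC inside the stretch of Sptb that lies nearer to the start. Those in Add2 are a CACCC and, nearer to the start, a pair of overlapping matches of CCNCNCCC on the other strand. Those in Epb42 are AGATAA on the other strand. Several of these windows lie far from the annotated start of the transcript that held most counts of its gene here. The window start lay 54100 bases before that of Add2-208 and 27678 bases before that of Add1-202, while it lay 524 bases from that of Sptb-202 and 42 bases from that of Epb42-201. Add2 has the sequence above upstream of its RefSeq start, and the annotated start of the transcript with most of its counts lies elsewhere.

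In wild-type F4/80+ cells all 9 genes were well measured. The EKLF+/+ and EKLF-/- libraries held 10695514 to 15362161 counts on genes, which is 27.3% to 32.8% of their reads, and the EKLF/GFP libraries held 22721900 to 28735322 counts. Levels of different genes are compared as RPKM (counts scaled to the exon length of the gene and to the depth of the library), and levels of 1 gene between libraries as CPM (counts scaled to depth only), both after TMM scaling. Slc4a1 was the most abundant of the 9 in EKLF+/+ cells, with 1079 ± 85.4 RPKM (SD, n = 3), followed by Sptb with 130 ± 5.57 and Ank1 with 85.1 ± 3.17. Add1 stood at 64.0 ± 1.48, Epb42 at 57.9 ± 8.30 and Epb41 at 52.5 ± 1.91 RPKM. The range of Epb42 over its 3 libraries overlapped those of both neighbours. Dmtn (36.6 ± 1.97), Add2 (36.3 ± 0.989) and Tmod1 (35.0 ± 3.77) overlapped one another at the end of the order.

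In EKLF-/- cells, 7 of the 9 genes were lower than in EKLF+/+ cells and none was higher, by the quasi-likelihood test of edgeR (adjusted p under 0.05 after Benjamini-Hochberg correction over 12753 genes). Across all genes tested, 10.6% were lower and 9.72% were higher. On leaving out any 1 library, 6 to 8 were lower. DESeq2 called 8 lower and none higher, and no gene of the 9 was higher at an unadjusted p under 0.05 either. The falls ranged from 203-fold for Dmtn to less than 2-fold for Tmod1, with a median log2 fold change of -1.24 over the 9 genes against 0.02 over all genes. The groups did not overlap for 8 of the 9 genes, all but Epb41, where 46.3% of all genes tested had groups that did not overlap. Klf1 itself read 362, 305 and 376 CPM in the EKLF+/+ libraries and 58.7, 64.2 and 57.1 CPM in the EKLF-/- libraries, so the targeted gene was low in every library labelled EKLF-/-. In bulk RNA, fewer cells of a type and less RNA per cell cannot be told apart.

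**Figure D1:**
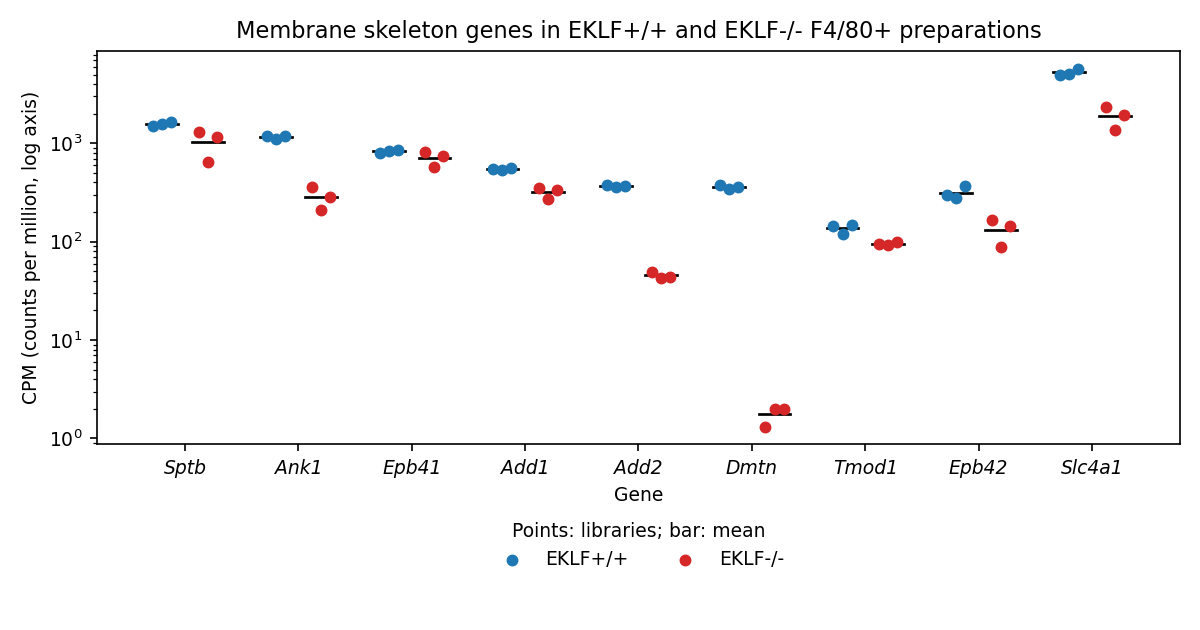
CPM of each of the 9 genes, on a log axis, in the 3 EKLF+/+ and 3 EKLF-/- libraries, with 1 point per library and a bar at the group mean. Dmtn and Add2 stand furthest apart between the groups, and Epb41 is the only gene of the 9 whose groups overlap.

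The genes that act on the actin filaments held both the largest and the smallest of the called falls. Dmtn (chr14:70601263-70636048, minus strand) was counted at 379, 340 and 358 CPM in the EKLF+/+ libraries and at 1.32, 1.99 and 2.00 CPM in the EKLF-/- libraries. The latter rest on 19, 26 and 26 reads, against 4099 to 5106 in EKLF+/+ cells. No EKLF-/- library came near the EKLF+/+ range, and Dmtn fell by 7.66 on the log2 scale (SE 0.17, adjusted p = 1.39e-07).

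The adducins act as a pair of α and β subunits, and their fall was unequal. Add2 (chr6:86028681-86124409, plus strand), the β subunit, read 377, 357 and 369 CPM in EKLF+/+ cells and 49.0, 43.2 and 44.1 CPM in EKLF-/- cells, a difference of 8.10-fold (log2 fold change -3.02, SE 0.11, adjusted p = 1.78e-06). Add1 (chr5:34573664-34632308, plus strand), the α subunit that most cells make, read 554, 533 and 556 CPM against 348, 272 and 333 CPM (-0.79, SE 0.12, adjusted p = 0.00421). Both fell without overlap between groups, and Add2 fell much further. The ratio of Add2 to Add1 counts was 0.680, 0.670 and 0.664 in EKLF+/+ libraries and 0.141, 0.159 and 0.133 in EKLF-/- libraries. The difference of the mean log2 ratio was -2.23, with p = 0.1 in a two-sided exact permutation test, which is the smallest p that 3 against 3 libraries allow.

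Tmod1 (chr4:46038935-46116032, plus strand), which caps the other filament end, read 144, 121 and 149 CPM in EKLF+/+ cells and 94.6, 91.8 and 100 CPM in EKLF-/- cells. Its fall was small (-0.53, SE 0.11, adjusted p = 0.0144). The call was lost on leaving out EKLF+/+ replicate 1 (adjusted p = 0.0738), EKLF+/+ replicate 3 (0.0546) or EKLF-/- replicate 3 (0.0508). Tmod1 shares 1287 exonic bases with Tstd2 on the opposite strand, and whether the counting used strand is not given in the sources used here, so reads of the overlap may belong to either gene. The same limit holds for Ank1 (862 bases), Add2 (356 bases) and Epb41 (233 bases), which also share exonic bases with genes on the opposite strand.

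The genes of the anchor to the bilayer were all lower. Ank1 (chr8:22974844-23150497, plus strand), the erythroid ankyrin, read 1175, 1102 and 1178 CPM in EKLF+/+ cells and 358, 210 and 287 CPM in EKLF-/- cells (-2.01, SE 0.19, adjusted p = 0.000339). Slc4a1 (chr11:102348824-102366203, minus strand), the anion exchanger, read 4950, 5128 and 5746 CPM against 2321, 1382 and 1928 CPM (-1.49, SE 0.19, adjusted p = 0.00174). Even the highest EKLF-/- library had less than the lowest EKLF+/+ library for each of them. Epb42 (chr2:121017891-121037072, minus strand), which binds the exchanger and ankyrin, read 298, 278 and 364 CPM against 166, 88.3 and 144 CPM (-1.24, SE 0.22, adjusted p = 0.00791). With these falls Ank1 moved from the third to the seventh place in the order of mean RPKM. Its range there overlapped those of Epb42 and Tmod1, the places just above. Slc4a1 and Sptb stayed at the top with 384 ± 96.4 and 85.5 ± 28.2 RPKM (SD, n = 3).

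The lattice and its junction protein were the exceptions. Sptb (chr12:76580488-76710547, minus strand), β-spectrin, read 1510, 1578 and 1645 CPM in EKLF+/+ libraries and 1302, 652 and 1161 CPM in EKLF-/- libraries. The groups did not overlap, but the EKLF-/- libraries lay far apart and the difference did not pass (-0.60, SE 0.23, adjusted p = 0.0920). DESeq2 called it (adjusted p = 0.0326), and so did edgeR without EKLF-/- replicate 1 (-0.80, adjusted p = 0.0315) or without EKLF-/- replicate 2 (-0.37, adjusted p = 0.0249). Epb41 (chr4:131923413-132075321, minus strand) read 804, 845 and 863 CPM against 812, 572 and 742 CPM, with 1 EKLF-/- library inside the EKLF+/+ range (-0.24, SE 0.14, adjusted p = 0.244). Leaving out 1 library at a time moved it between -0.35 (without EKLF-/- replicate 1) and -0.12 (without EKLF-/- replicate 2). EKLF-/- replicate 2 was the lowest library of its group for 8 of the 9 genes, all but Dmtn.

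Of the 16 partners, 10 were lower in EKLF-/- cells and none was higher, with a median log2 fold change of -0.60. They were the water channel Aqp1 (-3.47), the Duffy chemokine receptor Ackr1 (-4.22), the glucose transporter Slc2a1 (-1.59), the blood group proteins Kel (-1.09), Rhd (-0.96), Xk (-0.62) and Gypc (-0.62), and Mpp1 (-0.72), Cd47 (-0.58) and Tpm1 (-0.42). Rhag (-0.09), which also belongs to the red cell surface, did not pass, nor did Stom, Tpm3 or Actb. Of 14 paralogs tested, Add3 (-0.55), Epb41l1 (-1.54) and Epb41l3 (-0.94) were lower and Ank3 (2.13), a relative of Ank1, was higher. None of the other 10 passed.

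Markers of other cells moved as well. Hba-a1, Hba-a2 and Hbb-bt were not among the genes tested there. Of 7 erythroid-like markers tested, 5 were lower in EKLF-/- cells, with a summed level of 2013 to 2107 CPM in the EKLF-/- libraries against 7858 to 11529 CPM in the EKLF+/+ libraries. Of 8 neutrophil-like markers 4 were higher (7057 to 13401 CPM against 5264 to 6890 CPM). Of 6 monocyte-like markers 1 was higher, Ccr2, and their sums did not overlap (662 to 1047 CPM against 522 to 638 CPM). Of 6 endothelial-like markers 4 were lower (153 to 160 CPM against 218 to 245 CPM), as were 4 of 6 mesenchymal-like markers (21.1 to 32.0 CPM against 37.1 to 134 CPM) and 2 of 4 progenitor-like markers. Of 11 macrophage-like markers 3 were lower, and their sums overlapped (304 to 455 CPM against 303 to 362 CPM). Adgre1, the antigen of the sort, read 26.8, 33.6 and 32.5 CPM against 31.3, 40.3 and 29.4 CPM and did not pass (0.12, adjusted p = 0.604). The part of cell makeup in the falls of the 9 genes was not tested.

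In the reporter mice, all 9 genes were higher in EKLF/GFP+ than in EKLF/GFP- cells, with no overlap between groups for any of them. Of 14238 genes tested, 18.9% were higher and 25.8% were lower, and groups did not overlap for 55.7%. The differences ran from 0.75 for Add1 to 1.66 for Tmod1 on the log2 scale, with a median of 1.49 over the 9 genes against -0.01 over all genes. Klf1, whose promoter drives the reporter, read 101, 90.2 and 87.3 CPM in EKLF/GFP+ and 34.6, 45.7 and 28.6 CPM in EKLF/GFP- cells (1.35). Adgre1 ranged from 36.6 to 104 CPM and from 48.8 to 84.5 CPM and did not pass (0.21, adjusted p = 0.679).

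**Figure D2:**
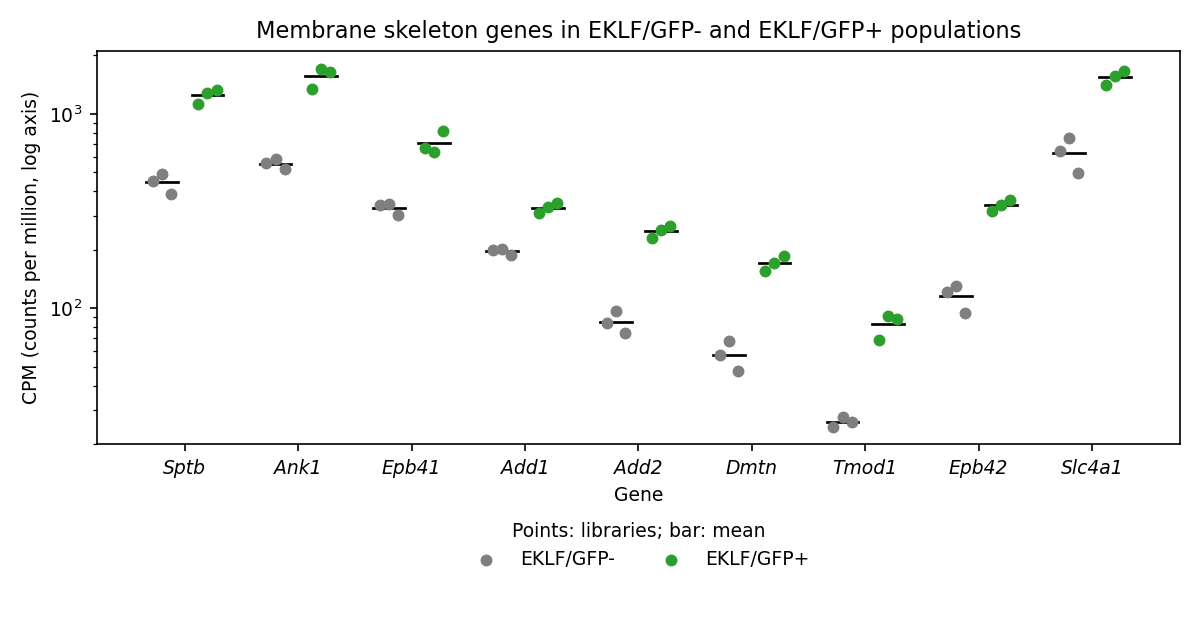
CPM of each of the 9 genes, on a log axis, in the 3 EKLF/GFP+ and 3 EKLF/GFP- libraries, with 1 point per library and a bar at the group mean. Every gene is higher in the EKLF/GFP+ libraries, and Add1 has the smallest gap.

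Among the genes of the actin filaments, Tmod1 read 69.2, 91.0 and 88.4 CPM in EKLF/GFP+ libraries and 24.7, 27.8 and 26.0 CPM in EKLF/GFP- libraries (1.66, SE 0.12, adjusted p = 2.99e-05). Dmtn read 156, 172 and 187 CPM against 57.6, 68.0 and 47.7 CPM (1.57, SE 0.13, adjusted p = 6.12e-05). The EKLF/GFP- libraries held 1124 to 1931 counts of Dmtn, so the gene was well measured in the group without fluorescence too. Add2 read 230, 254 and 266 CPM against 83.7, 96.7 and 74.7 CPM (1.55, SE 0.11, adjusted p = 2.67e-05), and Add1 read 309, 332 and 347 CPM against 199, 202 and 188 CPM (0.75, SE 0.07, adjusted p = 0.000130). The 2 adducins were again unequal. There were 0.742, 0.764 and 0.767 counts of Add2 per count of Add1 in EKLF/GFP+ libraries and 0.421, 0.477 and 0.397 in EKLF/GFP- libraries (difference of the mean log2 ratio 0.82, exact permutation p = 0.1, the smallest possible).

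At the anchor, Ank1 read 1337, 1710 and 1638 CPM in EKLF/GFP+ libraries and 556, 587 and 523 CPM in EKLF/GFP- libraries (1.49, SE 0.11, adjusted p = 3.42e-05). Epb42 read 316, 339 and 360 CPM against 122, 131 and 94.9 CPM (1.55, SE 0.12, adjusted p = 4.60e-05), and Slc4a1 read 1415, 1572 and 1666 CPM against 646, 754 and 500 CPM (1.29, SE 0.15, adjusted p = 0.000272). These groups lay well apart. In EKLF/GFP+ cells the order of levels began with Slc4a1 (317 ± 26.0 RPKM), Ank1 (115 ± 14.6 RPKM) and Sptb (102 ± 9.15 RPKM, SD, n = 3), of which the last 2 overlapped over their libraries, and it ended with Tmod1 and Dmtn (21.0 ± 3.02 and 17.5 ± 1.57 RPKM), which overlapped too. The range of Tmod1 also overlapped that of Add2, the next gene above it.

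Sptb and Epb41, which had not passed in the EKLF-/- comparison, both passed here. Sptb read 1120, 1280 and 1334 CPM against 452, 491 and 389 CPM (1.49, SE 0.11, adjusted p = 3.75e-05). Epb41 read 667, 641 and 818 CPM against 340, 346 and 303 CPM (1.10, SE 0.11, adjusted p = 0.000144). The comparisons used different mice, kits and counting programs, and the difference between them was not tested.

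**Figure D3:**
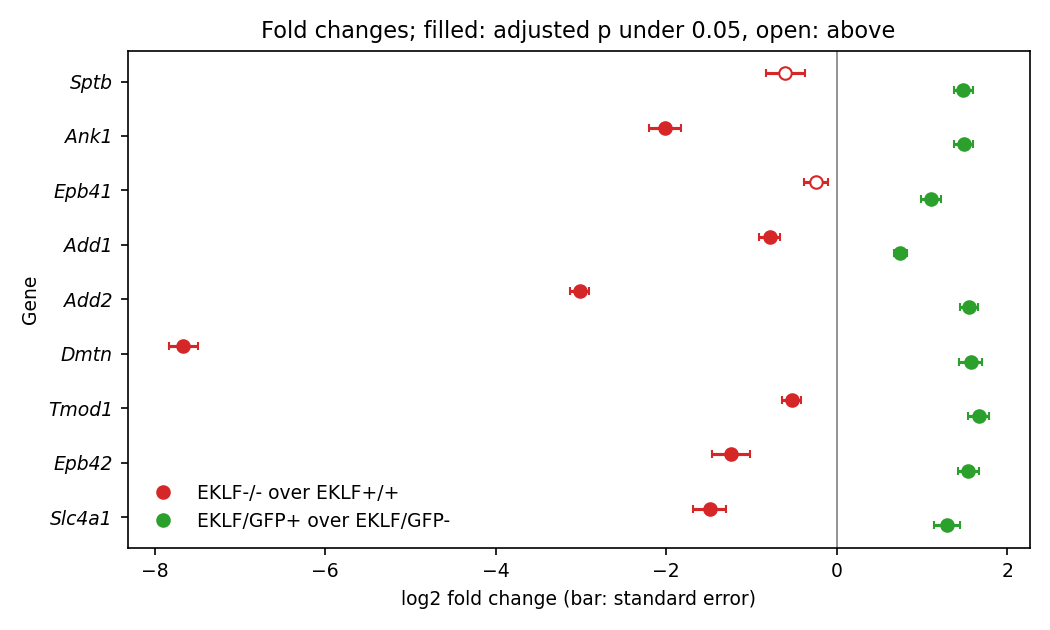
Log2 fold change of each of the 9 genes, with its standard error, in EKLF-/- against EKLF+/+ cells and in EKLF/GFP+ against EKLF/GFP- cells, as fitted by edgeR, with filled points where the adjusted p was under 0.05. Values range from -7.66 for Dmtn to -0.24 for Epb41 in the first comparison and from 0.75 to 1.66 in the second.

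Of the 16 partners 13 were higher, and Tpm3 (-1.01) and Actb (-0.33), which are not particular to red cells, were lower, while Cd47 (0.18) did not pass. Of 13 paralogs tested 5 were higher (Ank2, Ank3, Epb41l1, Epb41l5 and Tgm2) and 6 were lower, with Sptan1 (-2.20) and Sptbn1 (-1.98), the spectrins of other cell types, and Epb41l2 (-1.10) among them. All 10 erythroid-like markers were higher (summed level 11445 to 14786 CPM against 6355 to 8624 CPM). Of 6 megakaryocyte-like markers 5 were higher and 1 was lower (134 to 209 CPM against 92.5 to 110 CPM). All 8 neutrophil-like, all 6 monocyte-like and all 4 lymphoid-like markers tested were lower, as were 4 of 6 endothelial-like, 3 of 4 progenitor-like and 2 of 6 mesenchymal-like markers. Of 11 macrophage-like markers 1 was lower and none was higher (199 to 561 CPM against 343 to 516 CPM). The part of cell makeup and of the extraction kit in the rise of the 9 genes was not tested.

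The study's own table of normalized counts for the reporter libraries gives far lower values for a pair of the 9 genes. Dmtn stands there at 57.4, 66.2 and 75.6 normalized counts in EKLF/GFP+ libraries and at 16.5, 22.9 and 18.4 in EKLF/GFP- libraries, which is 1.12% to 1.53% of what the transcripts of the gene sum to after size-factor scaling. Add2 stands at 617 to 1022 and 171 to 243 normalized counts, or 7.96% to 15.3% of the sum. Over all genes the table and the sums had a median of 100.4%, and 5.39% of genes were under 0.2 times the sum. The direction was the same in either source. With limma on log2 of the table's values plus 1, Dmtn rose by 1.74 (adjusted p = 0.00268) and Add2 by 2.03.

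Transcripts are described by their share of the estimated counts of their gene, a scale on which long transcripts weigh more than in TPM, which is per length. Of 91 listed transcripts 70 were abundant enough to test, 40 were higher in EKLF/GFP+ cells and none was lower, where 4.13% of 45649 transcripts were higher and 7.75% were lower. The count of 40 was 26 without EKLF/GFP- replicate 1 and 19 with the replicate number as a block. Sptb-202, of 2137 residues, held 92.7 ± 0.564% of the counts of Sptb in EKLF/GFP+ and 91.5 ± 0.814% in EKLF/GFP- cells (SD, n = 3). Slc4a1-201, of 929 residues, held 93.4 ± 0.204% and 92.5 ± 0.557%. By TPM, Sptb-202 held 94.2% and 93.3% of its gene, but Slc4a1-201 held 26.5% and 24.0%, below the short noncoding models Slc4a1-204 (40.1% and 35.0%) and Slc4a1-203 (32.8% and 40.8%). By counts, Add1-202, of 662 residues, held 67.0 ± 2.00% and 66.7 ± 2.63%, and Epb41-205, of 858 residues, held 68.7 ± 5.89% and 72.7 ± 5.89%. Epb42-201 held 51.7 ± 3.37% and 50.6 ± 3.60%. Tmod1 was split between Tmod1-201 (43.0 ± 2.43% and 43.8 ± 2.22%) and Tmod1-202 (40.8 ± 3.09% and 40.2 ± 2.36%). By TPM in EKLF/GFP+ cells, Add1-202 held 31.6%, Epb41-205 58.3%, Epb42-201 14.2% and Tmod1-201 9.54% of its gene, so that the leading transcript of Epb42 and of Tmod1 depends on the scale.

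For several genes the annotated model of an abundant transcript begins well inside the gene, and no start was measured here. The model of Add2-208, of 725 residues, begins 54100 bases downstream of the most upstream start of the gene, and the transcript held 57.5%, 38.4% and 47.2% of Add2 counts in EKLF/GFP+ libraries and 66.3%, 61.3% and 46.0% in EKLF/GFP- libraries. The groups overlapped. The model of Epb41-205, which is almost all coding sequence, begins 67890 bases downstream and that of Add1-202 begins 27678 bases downstream. Ank1 was divided over Ank1-206 (36.8 ± 12.0% and 28.1 ± 9.07%) and Ank1-213 (22.5 ± 3.91% and 21.1 ± 2.65%), whose models begin 60255 and 60387 bases downstream, and Ank1-204 (28.5 ± 5.61% and 36.6 ± 2.95%), whose model begins 292 bases from the most upstream start. Dmtn counts were divided over Dmtn-210, of 358 residues (37.9 ± 2.50% and 38.4 ± 1.74%), Dmtn-208, of 383 residues (21.6 ± 6.02% and 22.5 ± 7.06%), and Dmtn-205, annotated as a target of nonsense-mediated decay (17.4 ± 1.03% and 19.7 ± 2.49%). By TPM, Dmtn-205 led with 57.0% and 60.6%, against 21.8% and 20.8% for Dmtn-210, and Dmtn-208 was lower still.

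A change of transcript usage was called in 0 of the 9 genes by edgeR's test of differential splicing on transcript counts, with 0 at an unadjusted p under 0.05 and a lowest unadjusted p of 0.194 (Sptb). The background was 1.70% of 9181 genes. Without EKLF/GFP- replicate 3, in which Add2-208 had its lowest share of that group, Add2 was called (adjusted p = 3.37e-05). Salmon divides reads that fit several transcripts by a model, and the shares carry that uncertainty.

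**Figure D4:**
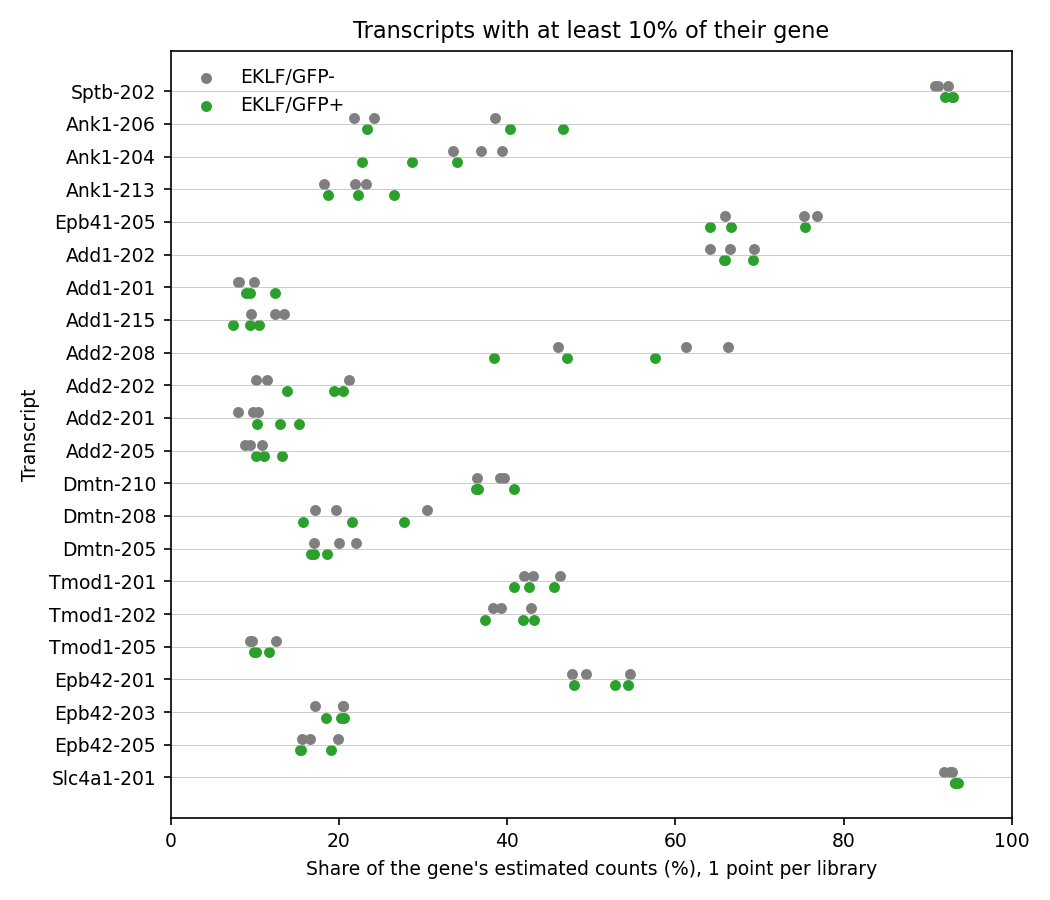
Percent of the gene's estimated counts held by each of the 22 transcripts with at least 10% of their gene, in EKLF/GFP+ and EKLF/GFP- libraries, with 1 point per library. Sptb and Slc4a1 lie above 90% in 1 transcript, and the points of Add2-208 and Ank1-206 are spread most widely.

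Single wild-type F4/80+ cells show which cells held these RNAs. There is 1 library, so no test was made, and intervals cover counting error only. After a filter on at least 200 genes, 3093 of 3096 barcodes were kept, with a median of 18565 counts, and they fell into 16 clusters that were found without the 9 genes. By marker genes, 12 clusters were named in 7 classes, of which the largest were macrophage-like (1063 cells), erythroid-like (636 cells), monocyte-like (284 cells) and neutrophil-like (220 cells), while 655 cells stayed unnamed. The label of the cells is F4/80+, and Adgre1 stood at 580 CPM in macrophage-like cells, 33.1 CPM in erythroid-like cells and 40.4 CPM in neutrophil-like cells. The doublet caller marked no cell and cannot be taken to have worked.

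Among the 7 named classes, 8 of the 9 genes were highest in the erythroid-like class. The unnamed cluster 9 (123 cells) stood above the erythroid-like class for 6 of the 9, with Slc4a1 at 542 CPM, Epb41 at 461, Epb42 at 153, Add1 at 101, Dmtn at 80.8 and Tmod1 at 75.9 CPM. This cluster met the naming thresholds for 6 macrophage-like markers but stayed outside that class. Its counts are therefore not in the ratios below. In the erythroid-like class Sptb stood at 134 CPM against 3.02 CPM in macrophage-like cells, a ratio of 44.3, and Add2 at 115 CPM against 2.88 CPM, a ratio of 39.9. Ank1 (127 against 4.36 CPM), Epb42 (80.9 against 3.39 CPM), Dmtn (53.8 against 2.27 CPM) and Slc4a1 (456 against 19.8 CPM) had ratios of 29.2, 23.9, 23.7 and 23.1, and Tmod1 (36.6 against 2.92 CPM) had 12.5. No order is read from ratios this close, since those of Dmtn and Slc4a1 were 36.4 and 35.5 at a clustering resolution of 0.4. Epb41 (158 against 48.3 CPM) and Add1 (75.6 against 56.6 CPM) were shared much more widely, with ratios of 3.27 and 1.34. Add1 was highest in endothelial-like cells, at 86.1 CPM (95% exact Poisson interval 71.0 to 104), where the erythroid-like interval is 71.9 to 79.5 CPM. Globins took 23.9% of the counts of the erythroid-like class, and with globin counts left out of the totals, an alternative added after the data were seen, all 9 genes were highest there among the named classes. In unnamed cluster 9, Add1 (105 against 99.4 CPM), Epb41 (477 against 207 CPM), Epb42 (159 against 106 CPM), Dmtn (83.7 against 70.7 CPM) and Tmod1 (78.6 against 48.1 CPM) were still above the erythroid-like class on that scale.

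Free RNA gives counts in cells that do not express a gene, so shares are given beside those of a class that should lack it. Add2 had a count in 77.4% of erythroid-like cells, 4.99% of macrophage-like and 3.18% of neutrophil-like cells (median depths of 26493, 17781 and 22214 counts). After thinning each cell to 5000 counts, which left out 56 cells, 11 of them erythroid-like and 4 each macrophage-like and neutrophil-like, these shares were 37.4%, 0.944% and 0.463%. For Slc4a1 the share was 83.2% in erythroid-like, 22.2% in macrophage-like and 25.5% in neutrophil-like cells, and 66.7%, 7.65% and 9.26% after thinning. The share of macrophage-like cells with Slc4a1 was no higher than that of neutrophil-like cells, while its level was higher, with 19.8 CPM (95% exact Poisson interval 17.9 to 21.7) against 13.7 CPM (10.8 to 17.3), so that no order is read from them. Add1 and Epb41 had counts in 22.9% and 19.5% of thinned macrophage-like cells and in 26.4% and 18.5% of thinned neutrophil-like cells. Megakaryocyte-like cells had Sptb at 22.4 CPM, Add2 at 10.3 CPM and Epb41 at 90.6 CPM, all above the macrophage-like level.

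Counted from the RNA instead of the cells, 92.5% of the Add2 counts and 91.6% of the Sptb counts lay in erythroid-like cells, but 51.4% of those of Epb41 and 34.4% of those of Add1. Of 643 cells with a count of Add2, 76.5% (95% Wilson interval 73.1% to 79.6%) were erythroid-like, 8.24% were macrophage-like and 8.40% were unnamed. The erythroid-like cells among them had Adgre1 at 27.6 CPM, the macrophage-like cells at 486 CPM and the unnamed cells at 421 CPM. Unnamed cells were 18.2% of the cells with a count of Epb42, 16.9% of those with Dmtn, 16.5% with Tmod1 and 19.1% with Slc4a1. Adgre1 is itself among the macrophage-like markers that named the clusters. Its difference between the classes is therefore in part built into them.

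Within the erythroid-like class the 9 genes differed in how they were spread over its 4 clusters. Adult globins made up 9128 CPM in cluster 8, 119844 CPM in cluster 7, 592925 CPM in cluster 11 and 668523 CPM in cluster 6, and levels are given in that order, which is one of globin content and not of time. Embryonic globins made up 159, 247, 3155 and 74141 CPM in the same order, so that cluster 6 stood apart from the other clusters in them. Add2 read 109, 148, 134 and 52.1 CPM and Add1 read 64.9, 92.0, 108 and 47.3 CPM, so that the cluster with least globin had 73.9% and 60.2% of their highest level over all clusters, but 33.2% and 24.6% with globin counts left out of the totals. Sptb (54.2, 199, 308 and 74.1 CPM) and Ank1 (93.0, 169, 225 and 59.6 CPM) were highest in cluster 11. Slc4a1 read 33.1, 627, 1238 and 577 CPM, with 2.67% of its highest level in cluster 8, and Dmtn had 5.74% there (9.69, 75.0, 169 and 34.3 CPM). Tmod1 read 12.0, 49.6, 87.5 and 33.7 CPM, and Epb42 read 23.9, 101, 180 and 107 CPM. Epb41 was highest where globin was highest, with 70.9, 114, 227 and 397 CPM. The low values in cluster 6 depend on the scaling. With globin counts left out, Add2 read 110, 168, 332 and 202 CPM, so that the cluster with the most Add2 changed from 7 to 11, and Epb41 read 71.5, 130, 561 and 1544 CPM. On that scale cluster 6 stood above cluster 7 for every one of the 9 genes, with Slc4a1 at 2242 against 713 CPM, Sptb at 288 against 226, Ank1 at 232 against 193, Dmtn at 133 against 85.3, Tmod1 at 131 against 56.4, Epb42 at 414 against 115 and Add1 at 184 against 105 CPM. Cluster 11 then held the highest level of every gene but Epb41.

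**Figure D5:**
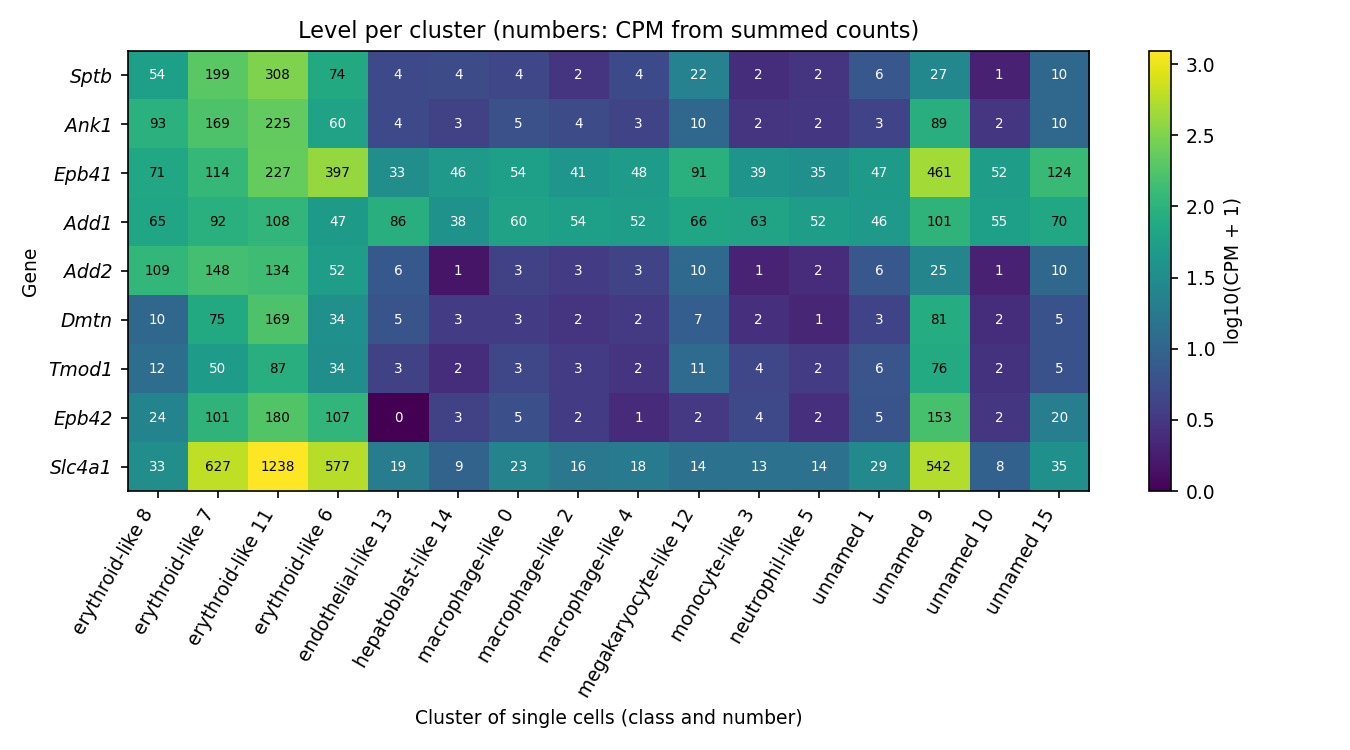
Level of the 9 genes (rows) in the 16 single-cell clusters (columns, with class and cluster number), coloured by log10 of CPM plus 1, with the CPM of the summed counts written in each cell of the map. The 4 erythroid-like clusters come first, in order of adult globin, and hold most of the high values, while Add1 and Epb41 are found in every cluster and unnamed cluster 9 has Epb41 at 461 CPM and Slc4a1 at 542 CPM.

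The genes whose levels over the 16 clusters were most like those of the 9 were named by Pearson's r of log2(CPM + 10) among 13196 candidates, as a description, since the clusters share 1 library and differ in depth. Rhd was among the 3 closest to Add2 (r = 0.98), Sptb (0.98) and Ank1 (0.98). Trim10 came first for Epb42 (0.99) and Slc4a1 (0.98), and Sox6 was among the 3 closest to Dmtn (0.98), Tmod1 (0.98) and Slc4a1 (0.96). Epb41 was closest to Ube2o (0.94) and Add1 to Ubp1 (0.89). Among the 9 genes, Dmtn and Tmod1 were the most alike (0.98), and Add1 and Epb41 the least (0.46).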

How the data were processed

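RNA-Seq was available for 12 bulk libraries (EKLF+/+, EKLF-/-, EKLF/GFP+ and EKLF/GFP- F4/80+ fetal liver cells, 3 each) and 1 single-cell library. For EKLF+/+ and EKLF-/- cells, the deposited raw counts per gene come from htseq-count after alignment to mm10 with STAR by the authors. For the reporter cells, the authors deposited expected (estimated) counts per transcript and TPM from Salmon against GRCm38, together with a table of normalized counts, a signal scaled by size factors. For single cells, the deposited values are estimated counts of molecules from Alevin, of which 4.19% of values above 0 were not whole (tolerance 0.001). TPM was not tested. Another 5 columns of counts in the file of EKLF+/+ replicate 1 name the other 5 libraries and were not used, nor was a table of log2 values that the authors made of the EKLF+/+ and EKLF-/- counts.

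Estimated counts were summed per gene for genes and kept per transcript for isoforms, then rounded. Each bulk comparison was fitted alone with edgeR 4.0.16 (TMM scaling, quasi-likelihood test, Benjamini-Hochberg adjustment over all features tested, threshold 0.05) on features that reached 10 counts in 3 or more of the 6 libraries. The ratio of Add2 to Add1 was tested by two-sided exact permutation. RPKM used the summed exon length of the gene model on GRCm38. Depth was 10695514 to 15362161 and 22721900 to 28735322 counts, and the precision of a group also rests on the spread between its 3 libraries. Cells were clustered with Seurat 5.3.0 without the 9 genes and named from fixed marker lists, and Scrublet ran in scanpy 1.11.5. A cluster was named from the list with most markers found in at least 25% of its cells and at least 2-fold over other cells (10 CPM added), with at least 3 markers. It stayed unnamed if the 10 genes most raised in it held more markers of another list. The same held where those 10 genes had no marker of its own list and either depth was low or another list had 2 or more markers. Cluster 9 stayed unnamed by the last rule, with 6 macrophage-like markers. DESeq2 1.42.0, limma 3.58.1, R 4.3.3, scipy 1.17.1, statsmodels 0.14.6, numpy 2.4.6, pandas 2.3.3 and matplotlib 3.10.9 were also used.

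The text names all 9 genes, Klf1, Adgre1, called members of the partner and paralog lists, transcripts with at least 10% of their gene, and genes among the 3 most alike to each gene over clusters. Results for some genes under this rule are not reported here. The genes and lists were chosen with earlier results of these data known. On simulated counts, 100 genes were changed by 1 and another 100 by 2 on the log2 scale. Of those changed by 1, 98 were called in the EKLF-/- design and 96 in the reporter design. The whole runs gave 11 false calls among 12763 genes and 13 among 14214. In a simulation of transcript usage, 100 of 100 switched genes were called, with 49 false calls among 9036 genes. Alternatives were DESeq2, other filters and scalings, the replicate number as a block, leaving out each library, the authors' normalized table, thinning, another clustering resolution, cells with at least 1000 genes, and, added after seeing the data, leaving out high doublet scores or globin counts and the ratio of Add2 to Add1 without each library.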

Additional observations from a re-analysis of the deposited data

How the results depend on the processing

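Every fold change of the 9 genes kept its direction under all alternatives run, 12 in EKLF-/- and 15 in EKLF/GFP+ cells. The number of the 9 genes lower in EKLF-/- cells was 6 to 8 on leaving out single libraries, through Tmod1 and Sptb, as given above with each library. Without EKLF+/+ replicate 3 Tmod1 differed by -0.50, and without EKLF-/- replicate 3 by -0.56. Across all genes, those lower in EKLF-/- cells numbered 1356, and 575 to 1889 without single libraries (576, 609 and 632 without EKLF+/+ replicates 1, 2 and 3, and 575 without EKLF-/- replicate 3). Those higher numbered 1239, and 346 to 1730 (346, 417, 370 and 426 for the same libraries). Fewer libraries enter these fits. No pairing by replicate number was seen, as the correlation of deviations was 0.02 or less in every pair and negative in some. Of 6 pairs, 1 was the best match of its own number. With so few libraries per group, this cannot show that samples of a number did not share a litter or a sort. With the replicate number as a block, 19 transcripts of the 9 genes were called in place of 40, and 7 and 9 genes stayed called. Without single libraries, 26 to 41 transcripts were called, with 26 without EKLF/GFP- replicate 1. Transcript usage was called in 0 to 1 of the 9 genes. At a clustering resolution of 0.4 the erythroid-like to macrophage-like ratio was 1.52 for Add1, 36.4 for Dmtn, 4.46 for Epb41 and 35.5 for Slc4a1. The cause of these shifts was not tested. Depth limits the single-cell shares, which thinning lowered for all 9 genes.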

Other observations

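The paralogs of the 9 genes had their levels in other cells of the single-cell library. Of the 13 paralogs with at least 10 counts, 0 were highest in erythroid-like cells among the named classes, where 8 of the 9 genes and 8 of the 16 partners were. The paralogs were listed as genes expressed mainly outside red cells, so this count follows in part from the choice of list. Epb41l3, a relative of Epb41, was highest in macrophage-like cells with 164 CPM. Sptbn1 (358 CPM), Sptan1 (79.3 CPM), Add3 (125 CPM), Tmod3 (111 CPM) and Epb41l2 (174 CPM) were highest in endothelial-like cells. Aqp1 and Ackr1, the partners with the largest falls in EKLF-/- cells, were highest in endothelial-like cells too.

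In the single-cell library, 123 cells in an unnamed cluster (cluster 9, median 8235 counts) had Adgre1 at 513 CPM together with Epb41 at 461 CPM, Slc4a1 at 542 CPM, Ank1 at 88.6 CPM and Dmtn at 80.8 CPM, but Sptb at 26.9 CPM and Add2 at 24.8 CPM. The cluster met the naming thresholds for 6 macrophage-like markers, Adgre1 among them, and for erythroid-like markers, Rhag among them. Macrophage-like markers summed to 8216 CPM there.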
